A study of Mus musculus with 15 samples.

Results

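The comparison described here asked whether extracellular vesicles (EVs) from mice exposed to 2 Gy of whole-body ionizing radiation (WBIR) 7 days earlier changed immune gene expression in LPS-treated macrophages, relative to EVs from sham mice. Its members are the genes of the nanoString nCounter Mouse Immunology panel with a mean raw count of at least 20 over the 6 samples compared, which held for 280 of 561 genes (49.9%). The rule used the level of a gene and not the difference between the groups. Among the 281 genes left out, 41 reached 20 counts in at least 1 sample, and 87 stayed at or below 10 counts in all 6. The members nearest to the threshold were Il21 with a mean of 20 counts, Smad5 with 20.3 and Entpd1 with 21.2, and the nearest genes outside it were H2-Q10 with 19.8 and Abcb1a and H2-Eb1 with 19.7 each.

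RAW 264.7 is an established mouse macrophage cell line, and every sample received LPS together with EVs. One group of 3 samples received EVs from the plasma of mice 7 days after 2 Gy, a dose that mice survive, and the other group of 3 received EVs from sham mice, which were not irradiated. The donors were young adult female C57BL/6J mice. The series holds 15 samples in 5 groups of 3, the other groups being EVs from mice 3 days after 2 Gy and 3 or 7 days after 9 Gy. The labels and the paper give different numbers of EVs per exposure and different lysis reagents, and no sample without EVs or without LPS was analysed here. The methods state that samples were run in triplicate, and neither source says whether the 3 samples of a group are repeat assays or came from separate cultures or EV preparations, so a p-value below measures only the spread between these samples, which may be technical.

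LPS, a component of the outer membrane of Gram-negative bacteria, is sensed by Tlr4 with Cd14 and Ly96. The adaptor Myd88, the Irak kinases and Traf6 pass the signal to NF-kB, which drives cytokine and chemokine genes, while a second arm through Tbk1 induces Ifnb1 and, through its receptor and the Stat proteins, interferon-response genes. Macrophages limit this response with inhibitors such as Nfkbia, Tnfaip3, Irak3 and Socs3. EVs are membrane particles shed by cells that carry protein and RNA, and circulating EVs can alter what a recipient macrophage transcribes.

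Total counts were between 670882 and 819074 with 2 Gy day 7 EVs and between 568097 and 729491 with sham EVs. The 14 housekeeping genes had a geometric mean of 454 to 588 counts per sample, and all values below are counts scaled to it (normalized counts). As a check of the cell type, all 11 macrophage markers on it were members, from Emr1 and Cybb to Csf1r, and they took 4.14 to 4.79% of the counts of each sample. No NK cell or platelet marker passed the filter, and 2 of 11 T cell markers (Cd8a and Lck), 2 of 6 B cell markers (Ms4a1 and Blnk) and 1 of 7 granulocyte and mast cell markers (S100a8) did. Their summed raw counts overlapped between the groups in each of these lists, at 206 to 331 against 195 to 266 for the T cell list and 177 to 280 against 155 to 253 for the B cell list.

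The 6 samples did not divide by EV source. Over the 169 members that averaged at least 100 counts, the first principal component held 81.1% of the variance (71.3% over all 280 members). Its scores were -2.70, 2.87 and 3.40 for 2 Gy day 7 replicates 1 to 3, and -2.44, 3.05 and -4.18 for sham replicates 1 to 3. Replicates 2 and 3 of the 2 Gy day 7 group therefore lay beside sham replicate 2, and replicate 1 lay beside sham replicates 1 and 3. The second component held 10.3%. In RNA from whole cultures, fewer responding cells and less RNA per cell cannot be told apart.

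**Figure D1:**
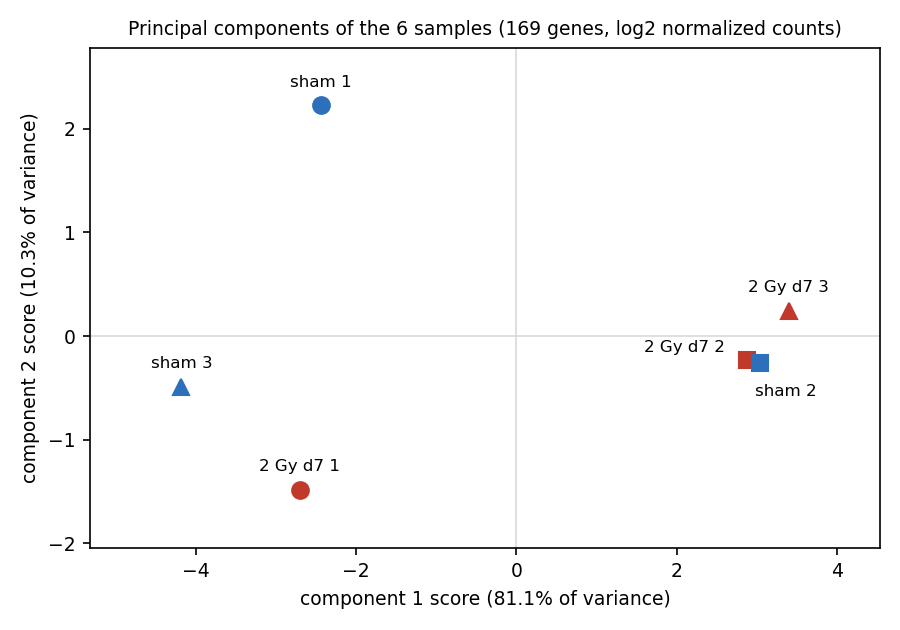
Scores of the 6 samples on the first and second principal components of the log2 normalized counts of the 169 genes that averaged at least 100 counts; red symbols are 2 Gy day 7 EVs and blue symbols sham EVs, with the replicate number beside each. Sham replicate 2 (3.05 on component 1) sits between 2 Gy day 7 replicates 2 (2.87) and 3 (3.40), and 2 Gy day 7 replicate 1 (-2.70) sits among the other sham samples.

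Correlations of log2 normalized counts across genes, given as a description, drew the same picture. 2 Gy day 7 replicates 2 and 3 correlated at 0.996 with each other and at 0.996 each with sham replicate 2. 2 Gy day 7 replicate 1 correlated at 0.994 and 0.992 with sham replicates 3 and 1, but at 0.981 and 0.977 with replicates 2 and 3 of its own group. The median absolute log2 difference of a gene was 0.112 between 2 Gy day 7 replicate 2 and sham replicate 2, and 0.272 between 2 Gy day 7 replicates 1 and 2. No samples were alike within counting noise, since the chi-square statistic per degree of freedom was 2.30 or more for every pair. The labels give no date or batch for the samples, and what separates them was not tested. The counts at each p threshold and within 2-fold are accordingly given also without 2 Gy day 7 replicate 1 and without sham replicate 2.

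No gene passed the test between 2 Gy day 7 and sham EVs. In the edgeR quasi-likelihood fit, 0 of 280 genes (0%) passed an adjusted p of 0.05 (Benjamini-Hochberg over the 280), where the smallest adjusted p was 0.896. At an unadjusted p of 0.05 the count was also 0 of 280 (0%), and DESeq2 likewise gave 0 and 0. The log2 fold changes were centered on zero, with a median of -0.0036, 139 genes above and 141 below, and 209 genes within 0.25 in either direction. They ranged from -1.004 for Traf6 to 0.60 for Icosl, and 12 genes were beyond 0.5.

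The intervals state how large a change these samples leave room for. The 95% interval of the log2 fold change lay within a 2-fold change in either direction for 237 genes (84.6%) and within a 1.5-fold change for 129 (46.1%). Precision followed the count: among the 169 genes averaging at least 100 counts, 153 (90.5%) were bounded within 2-fold, against 84 of the 111 (75.7%) averaging between 20 and 100. The median half-width was 0.39 and 0.57 on the log2 scale, respectively. The median coefficient of variation within a group was 13.8% with 2 Gy day 7 EVs and 15.8% with sham EVs, where counting error alone gives 7.82% at the same means. For the remaining 43 genes the interval reached past 2-fold, so these samples do not bound a change in them at that size. By the unequal-variance test per gene, which does not share the spread across genes, 187 of the 280 were bounded within 2-fold. In edgeR, 219 of 281 genes were so bounded without 2 Gy day 7 replicate 1, and 219 of 282 without sham replicate 2.

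**Figure D2:**
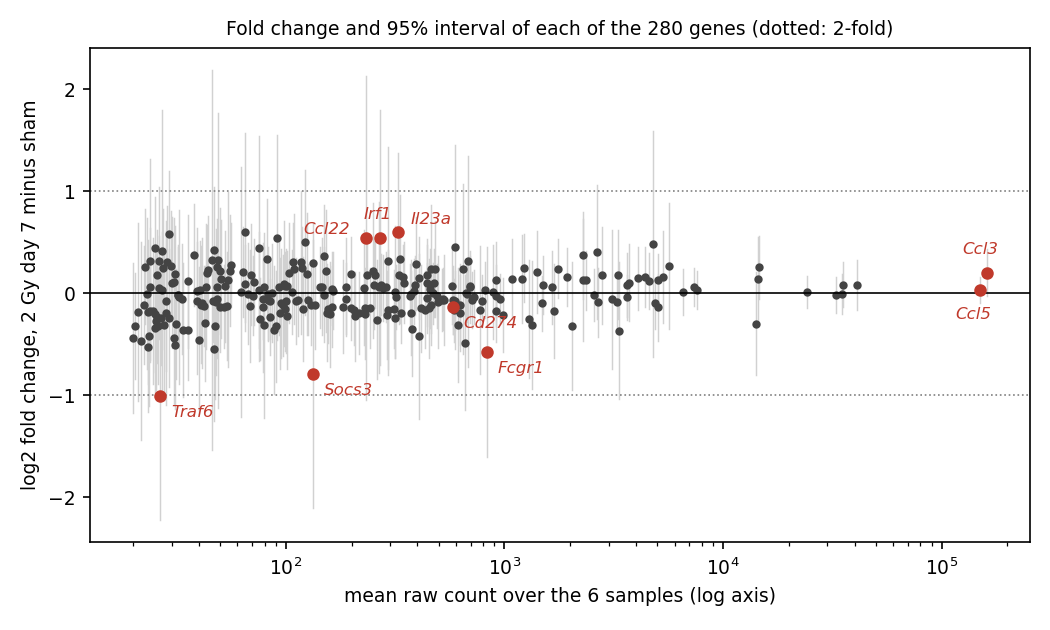
Log2 fold change of 2 Gy day 7 over sham EVs (y axis, normalized counts) against the mean raw count of each gene over the 6 samples (log x axis); dots are the 280 genes, grey lines their 95% intervals, dotted lines a 2-fold change, and red dots the genes labelled. All 280 intervals include 0, and they are narrowest for genes with high counts such as Ccl5 and widest for genes that varied between replicates, such as Socs3 and Ccl22.

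The genes that varied most did so within the groups. The chemokine Ccl22, which attracts Ccr4-bearing T cells, measured 86.2, 316 and 432 with 2 Gy day 7 EVs, against 131, 359 and 80.1 with sham EVs. 2 Gy day 7 replicates 2 and 3 and sham replicate 2 were high and the other 3 samples low, so the groups overlapped over nearly their whole range. The highest replicate was 5.01 times the lowest with 2 Gy day 7 EVs and 4.48 times with sham EVs, and the log2 fold change between the groups was 0.54 with a 95% interval from -1.04 to 2.13 (adjusted p = 0.896).

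Irf1, a transcription factor of the interferon response, followed the same samples, at 157, 418 and 374 with 2 Gy day 7 EVs, against 103, 388 and 156 with sham EVs. Il27, a subunit of the cytokine IL-27, measured 2889, 6719.6 and 7070.2 with 2 Gy day 7 EVs, against 3142, 6687 and 2115 with sham EVs. Again 2 Gy day 7 replicate 1 lay with sham replicates 1 and 3. The log2 fold changes of Irf1 and Il27 were 0.55 (interval from -0.70 to 1.79) and 0.48 (interval from -0.62 to 1.59), with an adjusted p of 0.896 for both.

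Cd40, a costimulatory receptor, gave 363, 934 and 962 with 2 Gy day 7 EVs, against 566, 903 and 349 with sham EVs. Itgal, the alpha chain of the integrin LFA-1, gave 148, 395 and 438 with 2 Gy day 7 EVs, against 278, 377 and 133 with sham EVs. In both, sham replicate 1 was intermediate. Ikbke, Itga5, Slamf7, Cxcl11 and Il23a also had large weights at this end of the first component. Il23a, a subunit of IL-23, departed from the pattern in 1 sample, at 348, 426 and 383 with 2 Gy day 7 EVs, against 146, 393 and 222 with sham EVs: all 3 samples with 2 Gy day 7 EVs exceeded sham replicates 1 and 3, and sham replicate 2 lay among them.

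At the opposite end stood Socs3, the feedback inhibitor of Stat3 signaling, at 160.03, 59.9 and 74.7 with 2 Gy day 7 EVs, against 189.8, 59.1 and 262 with sham EVs. Here 2 Gy day 7 replicate 1 and sham replicates 1 and 3 were high. Its log2 fold change of -0.79 was the largest in size among genes averaging 100 counts or more, and its interval, from -2.11 to 0.52, was wide (adjusted p = 0.896). Fcgr1, the high-affinity IgG receptor, measured 1024, 544 and 446 with 2 Gy day 7 EVs, against 1279, 469 and 1253 with sham EVs. The LPS coreceptor Cd14 measured 3822, 2438 and 2510.2 with 2 Gy day 7 EVs, against 3851, 2403 and 5038 with sham EVs. The scavenger receptors Cd36 and Msr1 and the transcription factor Cebpb had negative weights as well, as did Il6, at 3978, 2844 and 2189 with 2 Gy day 7 EVs, against 2809, 2257 and 4326 with sham EVs. In these genes the order of the samples was broadly reversed relative to Ccl22, and the groups overlapped.

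**Figure D3:**
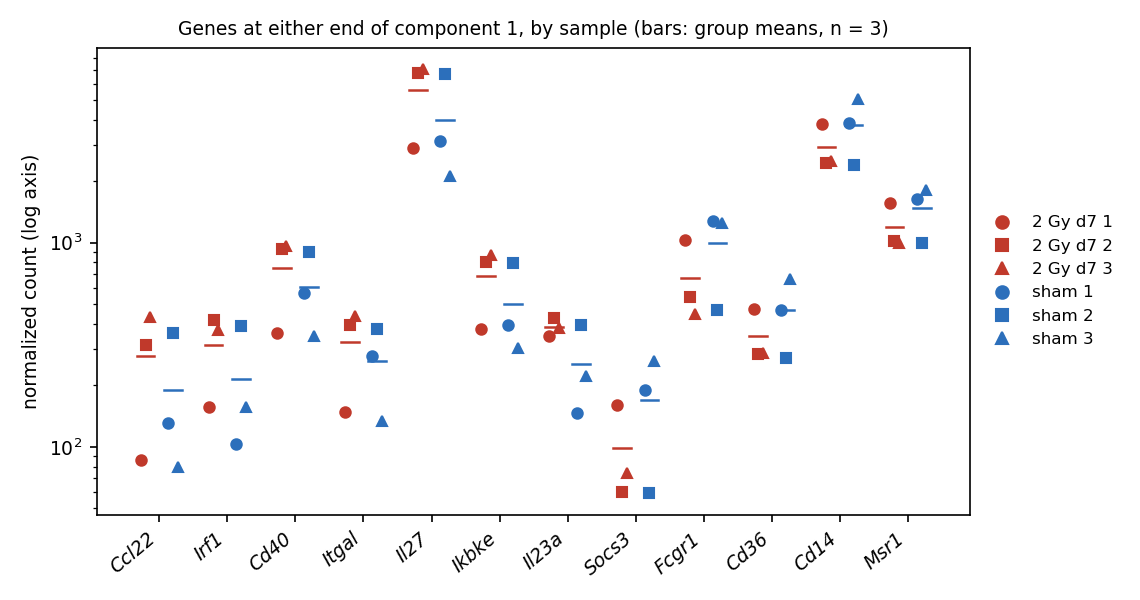
Normalized counts (log y axis) of 12 genes from both ends of the first component in each of the 6 samples; symbols mark replicates 1 to 3, red is 2 Gy day 7 EVs, blue is sham EVs, and short bars are group means (n = 3). In Ccl22 to Il27 the red square, red triangle and blue square lie above the other symbols, and in Socs3 to Msr1 they lie below them.

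Over all 169 genes of the component, 91 (53.8%) had a positive weight and 78 a negative one. By gene list, 12 of the 15 inflammatory cytokine genes averaging 100 counts or more had a positive weight on the first component, as had 8 of 9 chemokines and 8 of 10 integrin and adhesion genes, while 7 of 8 phagocytic, Fc and lectin receptors and 7 of 8 apoptosis and DNA damage genes had a negative one. Other lists were more evenly divided, with 10 positive and 7 negative weights in the interferon list, 6 and 4 among NF-kB genes, 6 and 4 in antigen presentation, 5 and 3 among Toll-like receptors and adaptors, 2 and 2 each among costimulation ligands and effector enzymes, 3 and 4 among cytokine receptors, 5 and 6 among JAK, STAT and SOCS genes and 5 and 5 among housekeeping genes. The weights describe how genes varied over all 6 samples, and with 6 samples they are given without a test.

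Promoter windows of 3 of the genes with the widest spread between replicates are shown because 2 of them, Irf1 and Ccl22, were high in the samples in which the other, Socs3, was low. Each window runs from 250 bases before to 50 bases after the annotated start, 5′ to 3′ on the gene's strand, as given by RefSeq for GRCm38.p6. Capitals mark matches, on either strand, to an NF-kB motif (GGG and CC separated by any 5 bases), a STAT motif (TTC and GAA separated by any 3 bases) or an interferon regulatory factor motif (GAAA and GAAA separated by any 2 bases). Some matches overlap. The positions are chr11:53769764-53770063 on the plus strand for Irf1 (the first of its 2 windows), chr8:94745434-94745733 on the plus strand for Ccl22, and chr11:117969317-117969616 on the minus strand for Socs3.
Irf1: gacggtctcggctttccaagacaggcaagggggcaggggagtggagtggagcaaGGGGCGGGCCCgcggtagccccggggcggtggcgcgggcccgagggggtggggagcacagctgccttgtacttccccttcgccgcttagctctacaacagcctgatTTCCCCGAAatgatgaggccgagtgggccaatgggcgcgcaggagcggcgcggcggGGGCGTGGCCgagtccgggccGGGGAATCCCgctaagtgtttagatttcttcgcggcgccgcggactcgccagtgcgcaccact
Ccl22: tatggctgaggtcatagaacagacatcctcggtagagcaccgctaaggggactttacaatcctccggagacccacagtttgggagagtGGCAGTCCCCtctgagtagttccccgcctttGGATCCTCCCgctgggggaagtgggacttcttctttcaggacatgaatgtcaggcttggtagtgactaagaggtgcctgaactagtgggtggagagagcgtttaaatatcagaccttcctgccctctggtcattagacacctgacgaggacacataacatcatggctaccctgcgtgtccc
Socs3: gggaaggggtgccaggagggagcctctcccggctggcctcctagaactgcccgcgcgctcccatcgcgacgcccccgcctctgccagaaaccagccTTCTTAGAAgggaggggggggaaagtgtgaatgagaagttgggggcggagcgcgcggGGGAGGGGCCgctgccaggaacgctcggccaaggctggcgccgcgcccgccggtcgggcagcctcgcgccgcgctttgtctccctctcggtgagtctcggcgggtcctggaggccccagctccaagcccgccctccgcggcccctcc
The Irf1 window holds GGGGAATCCC at -13 to -4 from the start, a letter string that reads as the NF-kB motif on both strands, and TTCCCCGAA at -90 to -82, a STAT match. The Irf1 window has further NF-kB matches upstream. The Socs3 window holds the STAT match TTCTTAGAA at -154 to -146 and the NF-kB match GGGAGGGGCC at -97 to -88. Ccl22 has 2 NF-kB matches, at -162 to -153 and -131 to -122, and no STAT match in these letters. All 3 windows hold NF-kB letters, and those of Irf1 and Socs3 hold STAT letters. The NF-kB letters are common, present in 50.8% of 32851 promoter windows and 64.3% of the 263 windows listed for 210 members. The other 70 members have no window under their deposited symbol in the table used here. The STAT letters occurred in 8.3% and 10.3% of them, and the interferon regulatory factor letters in 3.44% and 6.46%. A match is a description of the letters and was set against no binding data.

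In 11 genes the 3 samples with 2 Gy day 7 EVs lay wholly to one side of the sham samples. They were 7 of 280 genes (2.5%) that were higher, namely Bst2, Fas, H2-Ob, Ifi35, Irak3, Irak4 and Psmb10, and 4 of 280 (1.43%) that were lower, namely Cd274, H2-K1, Hprt and Jak3. An exact permutation test of 3 samples against 3 can reach no two-sided p below 0.1, and none of the 11 passed the test across all genes. The gap between the nearest samples of both groups was between 0.021% and 7.66% of their level, and it was over 5% in H2-Ob and Jak3 alone.

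Cd274 encodes PD-L1, the ligand of the inhibitory receptor PD-1 on T cells. It measured 546, 552 and 562 with 2 Gy day 7 EVs, against 609.9, 583 and 630.1 with sham EVs. All 3 samples with 2 Gy day 7 EVs were below all sham samples, and the means differed by -8.95%. The log2 fold change was -0.14 ± 0.11 (SE, n = 3 per group), with a 95% interval from -0.40 to 0.13 and an edgeR adjusted p of 0.896, which corresponds to between 0.76 and 1.09 times the sham level. The difference kept its sign in all 18 alternative analyses, from -0.21 to -0.09, and passed the adjusted threshold in none. Cd274 followed the first component only in part. Among the sham samples, replicate 2 was lowest, as in genes of negative weight. Among the 2 Gy day 7 samples, replicate 1 was lowest, unlike in those genes. Sham replicate 2 lay above 2 Gy day 7 replicates 2 and 3, which it resembled otherwise.

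Among the 11, Irak4, the kinase that Myd88 recruits, measured 39.8, 42.0 and 47.2 with 2 Gy day 7 EVs, against 25.5, 39.4 and 33.8 with sham EVs. Irak3, an inhibitory member of the same family, measured 248, 256 and 244 with 2 Gy day 7 EVs, against 201, 238 and 223 with sham EVs. In both, sham replicate 1 was the lowest sample and sham replicate 2 came within 0.885% and 2.68% of the nearest sample with 2 Gy day 7 EVs. Jak3, which signals from receptors that contain Il2rg, measured 33.1, 24.1 and 37.4 with 2 Gy day 7 EVs, against 40.5, 40.4 and 39.6 with sham EVs. The 3 sham samples were nearly equal there, and 2 Gy day 7 replicate 2 stood lowest. Fas, a death receptor, measured 128, 124 and 102 with 2 Gy day 7 EVs, against 102, 83.8 and 101 with sham EVs, where 2 Gy day 7 replicate 3 and sham replicate 1 were almost level.

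Bst2, an interferon-induced protein that tethers budding virus to the cell, measured 7527, 7691 and 7362 with 2 Gy day 7 EVs, against 7046, 7329 and 7255 with sham EVs, a difference of means of 4.40% whose sign turned when counts were scaled to their total (log2 fold change -0.01). Ifi35, also induced by interferon, measured 1341, 1359.7 and 1279.8 with 2 Gy day 7 EVs, against 921, 1194 and 1235 with sham EVs, with sham replicate 1 well below the other samples. Psmb10, a subunit of the immunoproteasome that cuts proteins into peptides for MHC class I, measured 461, 481 and 466 with 2 Gy day 7 EVs, against 387, 451 and 402 with sham EVs. H2-K1, an MHC class I heavy chain, differed by -3.91% in the mean, at 939, 919.8 and 946 with 2 Gy day 7 EVs, against 972, 997 and 949.5 with sham EVs. H2-Ob, which moderates peptide loading of MHC class II, measured 23.7, 29.5 and 34.1 with 2 Gy day 7 EVs, against 22.0, 20.7 and 21.2 with sham EVs; its mean was higher by 35.9%, on counts of about 20 to 30 in most samples, and its log2 fold change was 0.44 with an interval from -0.06 to 0.95. Hprt, one of the housekeeping genes used for scaling, measured 190.3, 178 and 196 with 2 Gy day 7 EVs, against 196, 206 and 222 with sham EVs, with a gap of 0.021%.

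**Figure D4:**
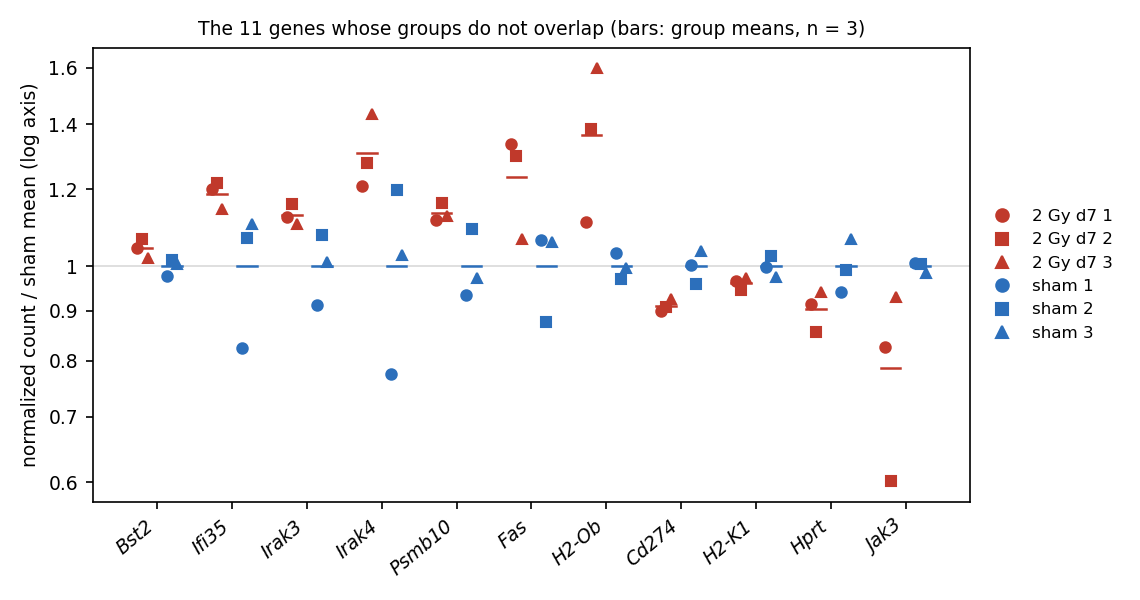
Normalized counts of the 11 genes whose groups did not overlap, each divided by its mean over the 3 sham samples (log y axis); symbols mark replicates 1 to 3, red is 2 Gy day 7 EVs, blue is sham EVs, and short bars are group means (n = 3). The gap between the nearest red and blue symbols is over 5% only in H2-Ob and Jak3, and the means differ by 4.40% in Bst2, -3.91% in H2-K1 and -8.95% in Cd274.

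The ligands are described first, then receptors, signaling and effector genes. None of the 15 lists of panel genes held a called gene. For comparison, 139 of all 280 genes had a fold change above 0, and the median over them was -0.0036.

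Of 20 inflammatory cytokine genes tested, 16 had a log2 fold change above 0 and 4 below, with a median of 0.19, and 13 of the 20 intervals stayed within 2-fold. Il1a, an alarmin of the IL-1 family, measured 1673, 2072 and 1961 with 2 Gy day 7 EVs, against 1695, 1632 and 1499 with sham EVs. 2 Gy day 7 replicate 1 was close to the sham samples and the other replicates exceeded them, and the log2 fold change was 0.24 (interval from -0.05 to 0.53, adjusted p = 0.896). Il1b, its secreted relative, followed the first component more closely, at 4118, 7132 and 7229.5 with 2 Gy day 7 EVs, against 4847, 6586 and 3897 with sham EVs. Il1rn, the antagonist of the IL-1 receptor, had higher counts and the opposite sign, at 15023, 11803 and 11468 with 2 Gy day 7 EVs, against 19179.8, 10743 and 17112 with sham EVs, with a log2 fold change of -0.30 (interval from -0.80 to 0.21).

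Tnf, the principal early cytokine of the LPS response, measured 2472, 3109 and 3239 with 2 Gy day 7 EVs, against 1994, 3338 and 2479 with sham EVs, and Il6 had a log2 fold change of -0.06 (interval from -0.74 to 0.62). Il10, the main anti-inflammatory cytokine of macrophages, was near the filter, at 23.7, 20.6 and 22.0 with 2 Gy day 7 EVs, against 37.0, 19.7 and 19.3 with sham EVs. Ebi3, which pairs with Il27, was among the steadier cytokines at 2422, 2608 and 2661 with 2 Gy day 7 EVs, against 2843, 2394 and 2539.8 with sham EVs, in contrast to the spread of Il27 itself. None of these separated the groups.

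All 10 chemokine genes tested had a fold change above 0, with a median of 0.23 and a range from 0.01 for Ccl7 to 0.54 for Ccl22, and none passed the test. Ccl3, which attracts monocytes and other leukocytes, gave the most counts on the panel, at 166215, 175582 and 174299 with 2 Gy day 7 EVs, against 129539, 171648 and 147028 with sham EVs. Sham replicate 1 was the lowest sample and sham replicate 2 reached the 2 Gy day 7 range, for a log2 fold change of 0.20 (interval from -0.03 to 0.44). Ccl5 was level across the samples, at 147998, 154556 and 151285 with 2 Gy day 7 EVs, against 147735, 152597 and 143363 with sham EVs, and its interval, from -0.09 to 0.16, was among the narrowest.

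Ccl2, which recruits monocytes, measured 14553, 17396 and 15711 with 2 Gy day 7 EVs, against 12718, 15676 and 11490.1 with sham EVs. Cxcl10, an interferon-induced ligand of Cxcr3, measured 2164, 2901 and 2635 with 2 Gy day 7 EVs, against 1769.5, 2469.8 and 1709.95 with sham EVs. In both genes 2 Gy day 7 replicate 1 was the lowest of its group and sham replicate 2 the highest of its group, as along the first component. Their log2 fold changes were 0.26 (interval from -0.05 to 0.57) and 0.37 (interval from -0.05 to 0.80). When each sample was left out in turn, they ran from 0.16 to 0.39 and from 0.27 to 0.56. Ccl9, with 37454, 44632 and 44725 with 2 Gy day 7 EVs, against 39576, 44044 and 36398 with sham EVs, differed by 0.08. The list's median stayed positive, between 0.16 and 0.30, in all 11 alternatives computed for lists, as did that of the cytokines, between 0.12 and 0.32.

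Among 15 Toll-like receptors and adaptors, 9 were above 0 and 6 below (median 0.06). Tlr4 itself had few counts, at 48.3, 48.3 and 45.0 with 2 Gy day 7 EVs, against 38.2, 30.6 and 52.1 with sham EVs, and Myd88 had 65.3, 100.1 and 109 with 2 Gy day 7 EVs, against 67.1, 89.7 and 59.8 with sham EVs. Traf6, the ubiquitin ligase downstream of the Irak kinases, had the largest fold change in size of all 280 genes, at 34.1, 8.05 and 10.99 with 2 Gy day 7 EVs, against 30.1, 28.6 and 48.2 with sham EVs. Replicates 2 and 3 of 2 Gy day 7 were the 2 lowest samples, and replicate 1 lay among the sham samples. The log2 fold change was -1.004 ± 0.52 (SE, n = 3 per group) with an interval from -2.22 to 0.21 (edgeR adjusted p = 0.896). Without 2 Gy day 7 replicate 1 it was -1.92, on 9 and 10 raw counts in the remaining samples of that group. When each sample was left out in turn, it ran from -1.92 to -0.64. Tollip, which restrains Irak1, measured 889, 825 and 885 with 2 Gy day 7 EVs, against 1039, 845 and 1043 with sham EVs, and Irak2 measured 780.3, 855 and 838 with 2 Gy day 7 EVs, against 756, 803 and 857 with sham EVs, so neither separated the groups.

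Of 16 NF-kB subunits and regulators, 7 were above 0 and 9 below (median -0.01), and 15 intervals stayed within 2-fold. Nfkb2 measured 3716, 4491 and 4625 with 2 Gy day 7 EVs, against 3656, 4366 and 3559 with sham EVs. Nfkbia, which holds NF-kB in the cytoplasm, measured 941, 855 and 951 with 2 Gy day 7 EVs, against 1132, 855 and 1199 with sham EVs, where sham replicates 1 and 3 were the highest samples (log2 fold change -0.21, interval from -0.57 to 0.15). Nfkbiz, a nuclear regulator of secondary response genes, measured 622, 573 and 612 with 2 Gy day 7 EVs, against 544, 601 and 806 with sham EVs, and only sham replicate 3 stood apart.

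In the interferon list 12 of 22 genes were above 0 (median 0.03). Ifnb1 was low and uneven, at 12.3, 45.6 and 34.1 with 2 Gy day 7 EVs, against 19.7, 39.4 and 9.65 with sham EVs, high in the same 3 samples as Ccl22. Ifnar1, a chain of its receptor, measured 368, 461 and 477 with 2 Gy day 7 EVs, against 422, 484 and 442 with sham EVs, and Irf7, an interferon-induced transcription factor, measured 5092, 4659 and 4429 with 2 Gy day 7 EVs, against 5385, 4588 and 5217 with sham EVs. The groups overlapped in all 3 of these genes. Among 14 JAK, STAT and SOCS genes, 5 were above 0 and 9 below (median -0.08), with Socs3 the most spread and Ptpn6, a phosphatase, at 393, 581 and 589.9 with 2 Gy day 7 EVs, against 581, 573 and 482 with sham EVs. Stat5b measured 131, 179.7 and 194 with 2 Gy day 7 EVs, against 117, 161 and 114 with sham EVs (log2 fold change 0.36, interval from -0.14 to 0.87).

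Among 16 cytokine receptors, all intervals lay within 2-fold, with 7 genes above 0 and 9 below (median -0.04). Il2rg, the common gamma chain, measured 536, 456 and 472 with 2 Gy day 7 EVs, against 402, 459 and 505 with sham EVs, and Tnfrsf1b, a TNF receptor, measured 1780.3, 1500.00 and 1485 with 2 Gy day 7 EVs, against 1904, 1298 and 2171 with sham EVs. Il6st, the shared signaling chain of the IL-6 family, measured 72.0, 63.5 and 74.7 with 2 Gy day 7 EVs, against 91.4, 70.0 and 88.8 with sham EVs. The groups overlapped in all 16.

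Antigen presentation was close to level, with all 12 intervals within 2-fold, 7 genes above 0 and a median of 0.05. B2m, the light chain of MHC class I, measured 34504, 31847 and 31844 with 2 Gy day 7 EVs, against 33441, 31153 and 34624 with sham EVs. Cd74, the invariant chain of MHC class II, measured 7925, 7508 and 7715 with 2 Gy day 7 EVs, against 7365, 7676 and 7618 with sham EVs. Both were nearly level across the samples, and their log2 fold changes were -0.01 (interval from -0.19 to 0.16) and 0.03 (interval from -0.16 to 0.22). Among the 7 costimulation and checkpoint ligands, 5 were above 0 (median 0.06). Icosl, the ligand of Icos, measured 44.5, 90.3 and 102 with 2 Gy day 7 EVs, against 49.8, 76.9 and 28.9 with sham EVs. On the log2 scale the difference was 0.60 (interval from -0.37 to 1.58), the largest positive value with all 6 samples, with Il23a also at 0.60, and the gene again divided the samples along the first component.

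Phagocytic, Fc and lectin receptors had 8 of 12 genes below 0 (median -0.11). Fcer1g, the signaling chain of the Fc receptors, measured 5364, 4595 and 4425 with 2 Gy day 7 EVs, against 5599, 4369 and 5843 with sham EVs. Fcgr2b, the inhibitory Fc receptor, measured 453, 564 and 680.00 with 2 Gy day 7 EVs, against 1133, 555 and 685 with sham EVs, with sham replicate 1 far above the rest (log2 fold change -0.48, interval from -1.14 to 0.18). Clec4e, which senses mycobacterial glycolipid and dead cells, measured 4376, 6028 and 6372 with 2 Gy day 7 EVs, against 4336, 6206 and 4451 with sham EVs. The list's median stayed negative in all 11 alternatives, from -0.20 to -0.07, and no member passed the test. Integrins and adhesion genes were 8 above and 5 below 0 (median 0.07). Itgb2, the beta chain of LFA-1 and Mac-1, measured 249, 295 and 352 with 2 Gy day 7 EVs, against 359.9, 309 and 329 with sham EVs, and the hyaluronan receptor Cd44 measured 802, 919.8 and 1011 with 2 Gy day 7 EVs, against 925, 943 and 907 with sham EVs. The tetraspanin Cd9 measured 3175, 3943 and 4042 with 2 Gy day 7 EVs, against 3398, 3931 and 3239 with sham EVs and Cd53 51.1, 67.0 and 65.9 with 2 Gy day 7 EVs, against 47.4, 53.2 and 51.1 with sham EVs.

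No effector enzyme passed the test. Nos2, the inducible nitric oxide synthase, measured 642, 714 and 783 with 2 Gy day 7 EVs, against 693, 678 and 662 with sham EVs, with a log2 fold change of 0.07 and an interval from -0.22 to 0.36. Ptgs2, the inducible cyclooxygenase, measured 38072, 34855 and 36194 with 2 Gy day 7 EVs, against 30364, 34345 and 38098 with sham EVs (0.09, interval from -0.14 to 0.31). Cybb, the catalytic subunit of the phagocyte NADPH oxidase, measured 12061, 16083 and 17316 with 2 Gy day 7 EVs, against 13243, 16404 and 11467 with sham EVs and followed the first component.

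In the apoptosis and DNA damage list, 4 of 15 genes were above 0 and 11 below, with a median of -0.15 that ran from -0.33 to 0.0004 over the alternatives. Cdkn1a, a p53 target that halts the cell cycle, measured 2773, 2367 and 2639 with 2 Gy day 7 EVs, against 2672, 2345 and 3261 with sham EVs. Xbp1, of the unfolded protein response, measured 659, 510.4 and 462 with 2 Gy day 7 EVs, against 632, 502 and 895 with sham EVs, with sham replicate 3 highest. The 3 autophagy and NOD genes were all below 0 (median -0.23). Nod2, a sensor of bacterial peptidoglycan, measured 22.7, 15.2 and 19.8 with 2 Gy day 7 EVs, against 24.3, 22.7 and 35.7 with sham EVs (log2 fold change -0.53, interval from -1.16 to 0.11). Atg16l1, which is needed to form autophagosomes, measured 88.1, 73.3 and 72.5 with 2 Gy day 7 EVs, against 98.4, 84.8 and 91.7 with sham EVs.

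The 13 housekeeping genes tested had a median of 0.01. Gapdh measured 32369.5, 34540.2 and 38303 with 2 Gy day 7 EVs, against 35139, 36539 and 33756 with sham EVs and Rpl19 23348, 24691 and 24706 with 2 Gy day 7 EVs, against 24489, 23760.1 and 23929 with sham EVs. The exceptions were the 2 with the fewest counts. Tubb5, a tubulin, measured 23.7, 39.3 and 41.7 with 2 Gy day 7 EVs, against 20.8, 25.6 and 23.2 with sham EVs, and Tbp, the TATA-binding protein, measured 51.1, 32.2 and 30.8 with 2 Gy day 7 EVs, against 60.2, 37.5 and 69.5 with sham EVs, with log2 fold changes of 0.58 and -0.54. Outside the lists, Ski, a repressor of TGF-beta signaling, measured 36.0, 22.3 and 18.7 with 2 Gy day 7 EVs, against 34.7, 39.4 and 35.7 with sham EVs (log2 fold change -0.50, interval from -1.13 to 0.12). Pparg and Ahr, nuclear and ligand-activated receptors that dampen macrophage activation, were below the filter, at 8 to 12 raw counts against 5 to 11 for Pparg and 1 to 7 against 2 to 9 for Ahr, too few to compare.

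The sign of a list's median held over all 11 alternatives for 5 of the 15 lists, namely cytokines, chemokines, phagocytic receptors, effector enzymes, and autophagy and NOD receptors, and turned for the other 10. The alternatives reuse the same samples, whose groups divide unevenly along the first component. The cytokine, chemokine and phagocytic lists had mostly one-sided weights on that component. How far a kept sign repeats this division was not tested. The costimulation median ran from -0.06 to 0.33 when each sample was left out in turn, and that of integrins from -0.04 to 0.18. Over all 11, the median of Toll-like receptors and adaptors ran from -0.01 to 0.10, of NF-kB genes from -0.08 to 0.05, of the interferon list from -0.05 to 0.08, of antigen presentation from -0.03 to 0.10, of cytokine receptors from -0.11 to 0.08, of JAK, STAT and SOCS genes from -0.16 to 0.0047, and of housekeeping genes from -0.07 to 0.05.

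**Figure D5:**
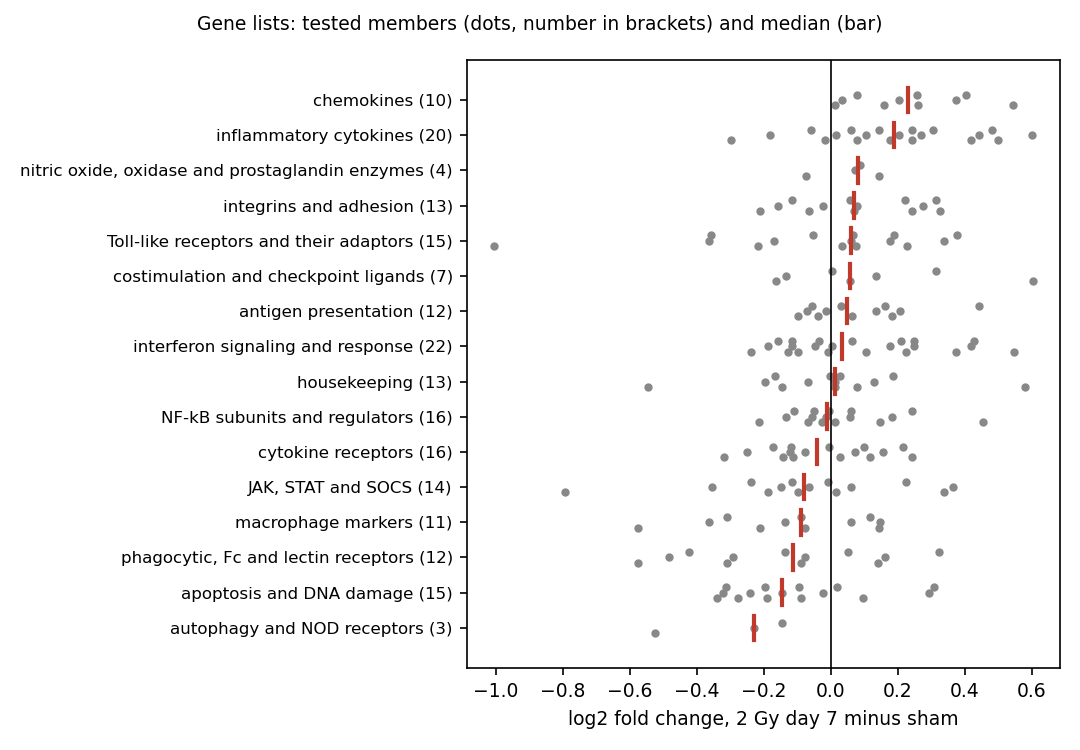
Log2 fold change of 2 Gy day 7 over sham EVs (x axis) for the tested members of each gene list with 3 or more of them; grey dots are genes, the number in brackets is how many were tested, and the red bar is the list's median. The medians run from -0.23 for autophagy and NOD receptors to 0.23 for chemokines, and no gene in any list passed the test.

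Leaving out a sample showed how far the counts rested on single libraries. Without 2 Gy day 7 replicate 1, 20 of 281 genes tested reached an unadjusted p of 0.05 in edgeR (13 higher and 7 lower). Without sham replicate 2, 34 of 282 did (15 higher and 19 lower). Leaving out any of the other 4 samples gave 0. No gene passed the adjusted threshold in any of these 6 fits, where the smallest adjusted p was 0.320 without 2 Gy day 7 replicate 1 and 0.333 without sham replicate 2. The calls shared by both were 6 genes, 30.0% of the first list and 17.6% of the second. Cxcl10, Icosl and Stat5b were higher and Fcgr1, Socs3 and Tbp lower, named here after their values were seen.

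Both omissions remove a sample from the side of the first component on which its group has a minority, so the remaining samples of the groups lie further apart along it. Without sham replicate 2, the log2 fold change of Ccl22 went from 0.54 to 1.401, that of Irf1 from 0.55 to 1.28, that of Il27 from 0.48 to 1.08, that of Ltb from 0.44 to 1.07, that of Il23a from 0.60 to 1.06 and that of Icosl from 0.60 to 1.01, so that Icosl no longer led, and without 2 Gy day 7 replicate 1 that of Socs3 went from -0.79 to -1.34. Other omissions moved the values toward 0. When each sample was left out in turn, Ccl22 ran from 0.08 to 1.40 and Irf1 from 0.22 to 1.28. Il23a ran from 0.33 to 1.06 and Socs3 from -1.34 to -0.33. Leaving out a sample for its profile is not a test of the EVs, and these values show only the range.

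The day 3 samples of the same dose were divided in this way only in part. Of the 3 samples given EVs from mice 3 days after 2 Gy, replicate 1 correlated across genes most with 2 Gy day 7 replicate 1 (0.993) and sham replicate 3 (0.992), and replicates 2 and 3 correlated most with 2 Gy day 7 replicate 2 (0.993 and 0.994). Replicate 2 was less clearly placed, since it correlated at 0.9899 with 2 Gy day 7 replicate 1 and at 0.9905 with replicate 3, and its median absolute log2 difference was 0.232 from the former, 0.225 from the latter and 0.216 from sham replicate 1. The direct comparison of the 2 days tested 280 genes, by the same filter over its own samples. Some of these, such as Abcb1a and H2-Eb1, are not members. In edgeR, 0 of the 280 (0%) passed the adjusted threshold and 8 had an unadjusted p under 0.05 (6 higher and 2 lower at day 7). The latter count became 46 without 2 Gy day 7 replicate 1. Scaled over those 6 samples, Nfkbiz measured 635, 585 and 625 at day 7 and 462, 485 and 483 at day 3, so that all day 7 samples exceeded all day 3 samples, and it had a log2 difference of 0.37 with an edgeR adjusted p of 0.876. Nfkbia measured 961, 874 and 972 at day 7 and 791, 753 and 759 at day 3, with a difference of 0.29 at the same adjusted p.

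Samples with the same replicate number deviated together between these 2 groups, with correlations across genes of 0.851, 0.684 and 0.774. The numbers were therefore taken to pair them there, although the labels do not say what a number shares. The pairing was chosen from these same counts, so the block's p-values and standard errors are not those of a pairing known beforehand. Without the block, Ccl22 differed by 0.92 ± 0.62 on the log2 scale (SE, n = 3 per group), with an edgeR adjusted p of 0.876. With the replicate number as a block, 29 of 280 genes (10.4%) passed an adjusted p of 0.05 in edgeR, 26 higher (9.29%) and 3 lower (1.07%) at day 7. The 6 genes of smallest adjusted p (0.00176 or less), named after their values were seen, were Ccl22 at 0.92 ± 0.10 on the log2 scale (SE, 3 pairs), Cd40 at 0.70 ± 0.08, the integrin gene Itga5 at 0.68 ± 0.07, Il27 at 0.54 ± 0.05 and Il1b at 0.53 ± 0.06, all higher at day 7, and Csf2, a growth factor of myeloid cells, at -0.84 ± 0.12, which was lower. Nfkbiz at 0.37 and Nfkbia at 0.28 passed as well, at an adjusted p of 0.0134 and 0.0285. The count depended on single pairs, being 62 without replicate 1 of both groups, 6 without replicate 2 and 0 without replicate 3, and it was 11 with TMM scaling and 18 with scaling to the median gene. Replicates 2 and 3 were not told apart by the correlations, since replicate 2 of day 7 correlated at 0.774 with replicate 3 of day 3. This comparison uses the same 2 Gy day 7 samples as the one with sham EVs, where the numbers did not pair.

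EVs taken at the same day after 9 Gy gave another result in the same assay. Against 2 Gy day 7 EVs, 155 of 291 genes tested (53.3%) passed an adjusted p of 0.05 in edgeR, 26 higher (8.93%) and 129 lower (44.3%) with 9 Gy EVs. Of the 280 members, 275 were tested there and 151 passed, 23 higher and 128 lower. The comparison uses the same 2 Gy day 7 samples as the one with sham EVs. Among the 13 housekeeping genes tested, 3 were higher and 4 lower. The split between directions depended on the scaling. Scaled to the median gene or by TMM, 72 were higher and 74 lower, and scaled to total counts, 174 were higher and 28 lower. A total rests largely on few genes. The 5 with most counts held 60.4 to 61.3% of the total in each 2 Gy day 7 sample. Ccl3 and Ccl5, the 2 of highest mean in the sham comparison, differed by -1.32 and -2.11 on the log2 scale with housekeeping scaling. The median log2 difference was -0.40 with housekeeping genes and 0.77 with total counts. Under all 4 scalings, 23 members passed as higher and 28 as lower, and 25 passed in opposite directions under different scalings.

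Scaled to the housekeeping genes over those 6 samples, Il6 measured 56.1, 52.4 and 79.8 with 9 Gy EVs and 5207, 3723 and 2866 with 2 Gy EVs. Il1a measured 28.0, 32.6 and 191 with 9 Gy EVs and 2190.1, 2712 and 2567 with 2 Gy EVs, and Il1b 109.7, 83.3 and 681 with 9 Gy EVs and 5390.3, 9334 and 9462 with 2 Gy EVs. The 9 Gy samples lay far below all 2 Gy samples, with log2 differences of -5.97, -4.88 and -4.79, and the genes stayed lower under all 4 scalings. Ifnb1 and Cxcl10 were higher with 9 Gy EVs under all 4, at log2 differences of 3.54 and 1.71. Cd274 measured 286, 327 and 363 with 9 Gy EVs and 715, 722 and 736 with 2 Gy EVs, a log2 difference of -1.15 (adjusted p = 0.00078) that was -0.70 by TMM and 0.02 when scaled to total counts, where it did not pass (adjusted p = 0.916). Ccl22, Irf1 and Nos2 did not pass between the doses with 3 of the scalings, and passed as higher when scaled to total counts, at log2 differences of 1.48, 1.80 and 0.80.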

How the data were processed

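The authors deposited raw nCounter counts per gene as whole numbers. Per the paper they normalized these in nSolver, whose settings and control probes were not used here, so no background was subtracted. Gene symbols were used as deposited, and 273 of 280 matched RefSeq directly, 6 as older symbols and 1 not. Each sample was divided by the geometric mean of its 14 housekeeping genes, relative to the samples compared. The 6 samples, grouped by title, entered an edgeR 4.0.16 quasi-likelihood fit in R 4.3.3 (prior count 0.125, threshold 0.05, Benjamini-Hochberg adjustment over genes averaging 20 counts or more), with Wald 95% intervals. The procedure was tested on simulated data. Alternatives were other scalings, filters and fits, DESeq2 1.42.0, an unequal-variance test per gene, a replicate block and leaving out each sample.

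The members, the gene lists and the rule for named genes were chosen with earlier results of these data known. The rule takes genes the paper names for 2 Gy EVs, the 10 of smallest p, the 5 of largest fold change and the 5 of highest counts, genes whose groups do not overlap, those with the widest spread, and the leading members of each list. Other genes named in the text were chosen after their values were seen, and so were the scaling-by-scaling values of the 9 Gy comparison, the sample gaps and the promoter motifs. Intervals and p-values rest on 3 samples a group, and replicate numbers were not taken to pair samples of the 2 Gy day 7 and sham groups (correlations of deviations 0.246, 0.645 and -0.616), but were for the 2 Gy groups (0.851, 0.684 and 0.774).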

Additional observations from a re-analysis of the deposited data

Results flagged for a closer look

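Differences between the doses at day 7 were tested directly, as 9 Gy day 7 against 2 Gy day 7 EVs in edgeR. There 155 of 291 genes tested (53.3%) passed. Among the genes named above, the log2 difference was -1.15 for Cd274, 1.06 for Tubb5, -1.74 for H2-Ob, 1.71 for Cxcl10, -1.32 for Ccl3, -4.88 for Il1a and 1.27 for Traf6, each past an adjusted p of 0.05 with counts scaled to the housekeeping genes. Scaled to total counts, Cxcl10, Tubb5, Traf6 and Il1a passed in the same direction, while H2-Ob at -0.57, Ccl3 at -0.15 and Cd274 at 0.02 did not pass.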

How the results depend on the processing

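No gene passed the adjusted threshold between 2 Gy day 7 and sham EVs in any of the 18 alternatives. The number at an unadjusted p of 0.05 was 0, and became 9 without a filter on low counts, 1 with all 5 groups in one fit (Tubb5), 3 with sham and both 2 Gy groups in one fit, 1 by the unequal-variance test per gene (Cd274), and 0 to 34 when each sample was left out in turn. The median log2 fold change was -0.0807 with scaling to total counts and 0.0409 with housekeeping genes without Tubb5. The number of genes bounded within 2-fold was 153 when a mean of at least 100 counts was required, because fewer genes were tested, and 187 of the same 280 genes by the unequal-variance test, against 237. The fit of all 5 groups includes the 9 Gy day 3 samples, which had 43176 to 87899 total counts and of which 2 carry a day label of 7 against their titles. Between 9 Gy and 2 Gy day 7 EVs, 65 genes passed by the unequal-variance test.

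Same-numbered samples of the 2 Gy day 7 and sham groups had deviations that correlated at 0.246, 0.645 and -0.616, so the numbers were not taken to pair the samples. With the replicate block, 6 genes reached an unadjusted p of 0.05 and 0 passed adjustment. Between 2 Gy day 7 and day 3, where same-numbered samples did deviate together, the block gave 29 genes against 0 without it. That pairing was chosen from the same counts. Alternatives chosen after seeing the data were the block with TMM scaling (11 genes), with scaling to the median gene (18) or total counts (26), and without each replicate number in turn (0 to 62). The cause of these changes was not tested. With 3 samples a group, genes whose interval reaches past 2-fold cannot be called unchanged.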
